A study of Homo sapiens with 10 samples.

Results

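The regions described here are stretches of chromatin that were accessible in SLFN11 knockout leukemia cells with DMSO and with prexasertib at each of 3 times, and that had no peak in the knockout cells given camptothecin. Peaks of 10 lists that shared 1 bp or more were joined into a region, and a library "called" a region if its own list has a peak there. Of 35505 regions, 1249 (3.52%) were called in the 4 other knockout libraries and not in the camptothecin library. They are named the members below. They were chosen by presence or absence of a peak in the 5 knockout lists, so every knockout value is a description and supports nothing. The calls in the Parent lists were not used.

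The cells are CCRF-CEM, a human T lymphoblast leukemia line, in a parental form ("Parent" in the labels, genotype wild-type, SLFN11-positive per the series record) and as an SLFN11 gene knockout ("SLFN11KO"). Cells of each genotype received DMSO, prexasertib (100 nM, with harvests at 2, 4 and 6 h) or camptothecin (100 nM, 4 h), and 1 ATAC-seq library was made per genotype and treatment. How the knockout was made and whether it is a single clone are not given in the sources used here. With 1 library per group there is no spread between replicates to set a difference against, no test was made, and the intervals given are for counting error across regions alone. The series record calls the raw reads of the Parent 4 h prexasertib library truncated, and merging without its list gave 1250 regions by the rule. Positions were not tied to genes, so neither the knockout nor the T cell identity was checked here.

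ATAC-seq finds open chromatin by the places where a transposase can insert adapters into DNA, mostly promoters and enhancers freed of nucleosomes. Camptothecin traps topoisomerase I on DNA while the strand is cut, and replication forks that meet such a complex can break. Prexasertib inhibits CHK1, the checkpoint kinase that restrains origin firing and protects stalled forks. SLFN11 is recruited to stressed forks, blocks their progress and is known to open chromatin there, and cells that lack it survive camptothecin better.

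The number of members was the largest among the 5 sets that lack a peak in exactly 1 knockout library. Against the 1249 members, 652 regions lacked only the DMSO peak, 413 only the peak after 4 h of prexasertib, 221 only that after 6 h and 136 only that after 2 h. As a share of the regions called in the other 4 libraries, the members were 7.70%, and the other sets were 4.17%, 2.68%, 1.45% and 0.900% in the same order. The sizes of these sets run opposite to the lengths of the lists. The camptothecin list was the shortest of the knockout lists, with 18851 peaks, against 20222 with DMSO and 21443, 23215 and 23951 at 4 h, 6 h and 2 h of prexasertib. In Parent cells the camptothecin list, with 21997 peaks, was longer than the DMSO list, with 15921. The Parent lists had a different order, with 1002 regions that lacked only the DMSO peak, 996 only the 2 h peak, 326 only the 4 h peak, 148 only the 6 h peak and 102 only the camptothecin peak. The library behind the largest set in knockout cells was thus the one behind the smallest set in Parent cells, a difference between single libraries that was not tested. Of the 102 Parent regions that lacked only the camptothecin peak, 17 were members, where members made up 3.52% of all regions. Of the 11988 regions called in all 5 Parent lists, 136 were members.

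**Figure D1:**
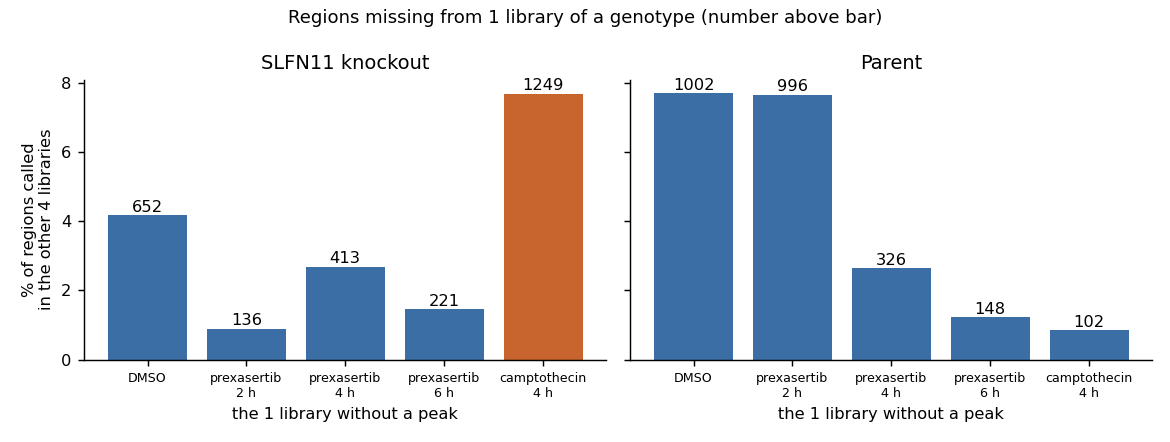
Regions without a peak in exactly 1 of the 5 libraries of a genotype, as a percentage of the regions called in the other 4 (y axis) by the library that lacks the peak (x axis), with the number of regions above each bar. In knockout cells the camptothecin bar is the highest, at 1249 regions, and in Parent cells it is the lowest, at 102.

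The members made up 32.6% of all regions lost with camptothecin in knockout cells. Of the 19954 regions called with DMSO, 3827 (19.2%) had no camptothecin peak, a share that includes the members by construction. Of these 3827, 890 were called in no prexasertib library, 822 in 1, 866 in 2 and 1249 in 3. Over all 19954 DMSO regions, 16220 were called in all 3 prexasertib libraries, a larger share than the 32.6% among those lost. For comparison, 9.4% of the DMSO regions had no peak after 2 h of prexasertib, 13.5% none after 4 h and 11.3% none after 6 h.

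Depth was read from the genome-wide background pileup, the lowest background that the peak caller's values imply in a library. In knockout cells the camptothecin library had 1.09 times the background of the DMSO library, and the 2 h, 4 h and 6 h prexasertib libraries had 1.32, 1.16 and 1.25 times. The camptothecin library was thus deeper than the DMSO library by this measure and shallower than the prexasertib libraries. With pileups and backgrounds of every library scaled to the lowest one, 1045 regions met the rule and 510 lacked only the DMSO peak. List length moved the count more: with the 15684 strongest peaks of each list, 471 regions met the rule and 413 lacked only the DMSO peak. The numbering of the peaks had no gap in any list.

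The members were weak and narrow peaks. Their median summit height, the pileup at the summit over the genome-wide background, was 10.0 with DMSO (quartiles 8.15 and 12.5), and the 2 h, 4 h and 6 h prexasertib libraries gave 10.0, 9.18 and 9.53. The 14971 regions called in all 5 knockout libraries had median heights of 21.3, 22.9, 22.7 and 22.1 in these libraries, and 18.4 with camptothecin. The median deposited −log10 q of the members, the caller's measure of how far a summit stands out, was 5.31, 7.36, 6.08 and 6.35 from DMSO to 6 h, and that of the regions called in all 5 was 16.0, 23.0, 20.3 and 21.1.

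Widths followed the same order. The longest peak in a member had a median width of 346 bp in the DMSO library and of 449, 383 and 406 bp in the 2 h, 4 h and 6 h prexasertib libraries. In regions called in all 5 knockout libraries it was 670, 784, 728 and 755 bp, and 643 bp with camptothecin. Of the members, 253 (20.3%) had a DMSO peak over 500 bp, against 72.5% of the regions called in all 5. The background around the members was low as well: the local background at the summit was a median 1.57 times the genome-wide one, against 2.84 times in the regions called in all 5.

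**Figure D2:**
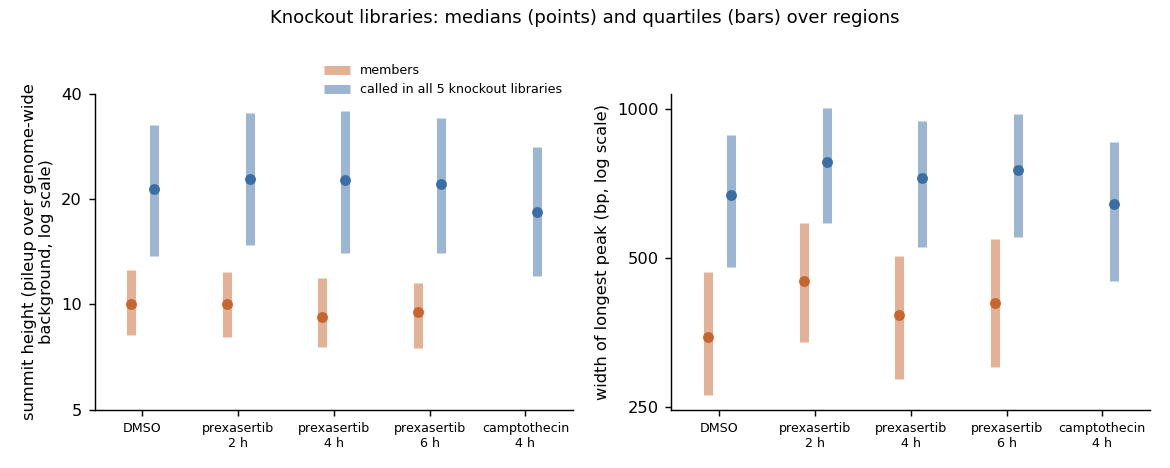
Summit height (left, pileup over the genome-wide background) and width of the longest peak (right, bp) in the 5 knockout libraries on log scales, with the median over regions as a point and the quartiles as a bar. Members (orange, without a camptothecin value by the rule) have a median height between 9.18 and 10.0, and regions called in all 5 libraries (blue) between 18.4 and 22.9.

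Among themselves, the members showed no single library that was high at most of them. The highest of the 4 heights was in the DMSO library at 358 members, in the 2 h library at 377, in the 4 h library at 292 and in the 6 h library at 222. Over DMSO, the median log2 height of the members was 0.02 in the 2 h library, with an interval of -0.02 to 0.04. In the 4 h library it was -0.05 (-0.08 to -0.02), and in the 6 h library -0.07 (-0.10 to -0.04). The 4 h and 6 h signs turned with the scaling, and the 2 h median stayed positive. The plain pileup gave 0.42, 0.16 and 0.25 at 2 h, 4 h and 6 h, and the fold over local background 0.04, 0.00068 and 0.01. In regions called in all 5 libraries the median log2 heights over DMSO were 0.11, 0.09 and 0.04 at 2 h, 4 h and 6 h. Peaks of the members were wider than with DMSO by a median log2 of 0.31 at 2 h, 0.09 at 4 h and 0.16 at 6 h, and by 0.17, 0.09 and 0.13 in the regions called in all 5. The order of the member widths is that of the depth of these libraries, whose part in it was not tested.

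How far the members stood above the caller's threshold was then calculated. At the local background that the 4 other libraries gave, scaled to the camptothecin library, a summit needed a median height of 6.32 to reach the lowest −log10 p that list holds. The median height of a member over its 4 libraries was 1.41 times the height it needed (quartiles 1.26 and 1.61). It was over 1.5 times the needed height at 464 members (37.1%) and over 2 times at 59 (4.72%). At the other members it was 2 times or less. In the regions that lacked only the DMSO peak this ratio was 1.32, and in those that lacked only the 2, 4 or 6 h prexasertib peak it was 1.49, 1.36 and 1.42. The needed height is a calculation and not a measured camptothecin height, since the lists hold no value where no peak was called. In regions with a camptothecin peak and values in all 5 knockout lists, 98.5% of the camptothecin summits lay at or above it. Since only called summits enter this share, it was bound to be high and is no check of the needed height at the members.

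The share of regions without a camptothecin peak went down with their strength in the DMSO library. Of the regions called in the 4 other knockout libraries, it was 33.0% (28.7% to 37.4%) at a DMSO −log10 q from 2 to 3, 31.1% (28.6% to 33.7%) from 3 to 5 and 14.8% (13.7% to 16.0%) from 5 to 10. It was 2.54% (2.11% to 3.03%) from 10 to 20, and above 20 it was 0.0840%, or 5 of 5950 regions. The members sat mainly in the lower bins, with 556 of them between 5 and 10, 414 between 3 and 5 and 154 between 2 and 3.

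**Figure D3:**
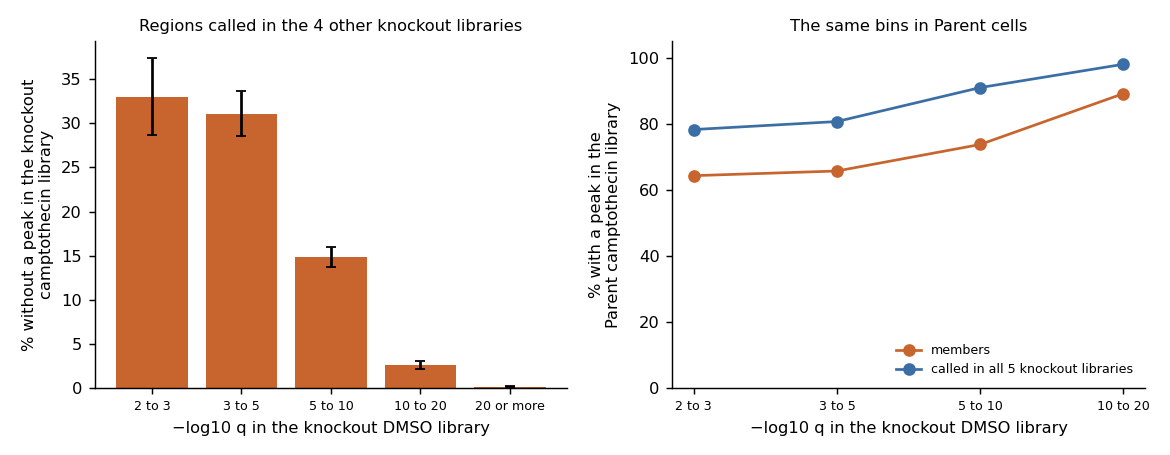
Left, the percentage of regions called in the 4 other knockout libraries that had no camptothecin peak, by −log10 q in the knockout DMSO library, with exact 95% intervals. It goes from 33.0% in the weakest bin to 0.0840% in the strongest. Right, the percentage with a peak in the Parent camptothecin library for members (orange) and regions called in all 5 knockout libraries (blue) in the 4 lower bins, where members are lower in each.

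At the edge of the rule, the member with the smallest −log10 q in any of its 4 libraries was at chromosome 4, 13538730 to 13539301, with 2.00 in the DMSO library and 13.5, 2.63 and 3.71 in the 2 h, 4 h and 6 h libraries. The next were at chromosome 17, 76254435 to 76255414, with a lowest value of 2.00, and chromosome 15, 49255869 to 49256563, with 2.01. Just outside, the region at chromosome 7, 43688210 to 43689741, had a camptothecin −log10 q of 2.00 and was called in all 5 libraries. Those at chromosome 11, 64879007 to 64880329, and chromosome 17, 40574409 to 40575422, were kept out by camptothecin values of 2.00 and 2.01. The values inside and outside come from different libraries, and members have no camptothecin value to set beside them. Only 330 members (26.4%) had a −log10 q of at least 5 in all 4 libraries and 35 had at least 10.

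In Parent cells the same regions were called most often in the 6 h prexasertib and the camptothecin library. With DMSO 474 of the 1249 members were called, 38.0% (35.3% to 40.7%), where 44.2% of all regions were. In the 2 h prexasertib list it was 468, 37.5% (34.8% to 40.2%), against 43.5% of all regions. After 4 h it was 677, 54.2% (51.4% to 57.0%), against 49.5%, and after 6 h 916, 73.3% (70.8% to 75.8%), against 64.3%. With camptothecin it was 892, 71.4% (68.8% to 73.9%), against 60.4%. A majority of the members, which by the rule have no peak in camptothecin-treated knockout cells, thus had one in camptothecin-treated Parent cells. The number without one there was 357.

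That profile was close to the profile of the regions that lacked only the knockout DMSO peak. Of those 652, 40.0% (36.2% to 43.9%) were called with DMSO in Parent cells, 36.3%, 52.5% and 72.1% in the 2 h, 4 h and 6 h prexasertib lists, and 72.4% (68.8% to 75.8%) with camptothecin. In each of the 5 Parent lists the intervals of both sets overlapped. Regions that lacked only the knockout 2 h, 4 h or 6 h peak were called less often than members in some Parent lists. The Parent 4 h list called 44.9%, 43.1% and 46.2% of them, and the camptothecin list 67.6%, 66.3% and 62.4%. With Parent DMSO it was 31.6%, 36.8% and 39.4%. No test of these differences was made, and the Parent profile of the members is not shown to be particular to loss with camptothecin. The regions called in all 5 knockout libraries stood apart, with 87.0% called with DMSO, 86.2%, 91.9% and 96.0% in the 3 prexasertib lists in order of time, and 95.8% with camptothecin.

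**Figure D4:**
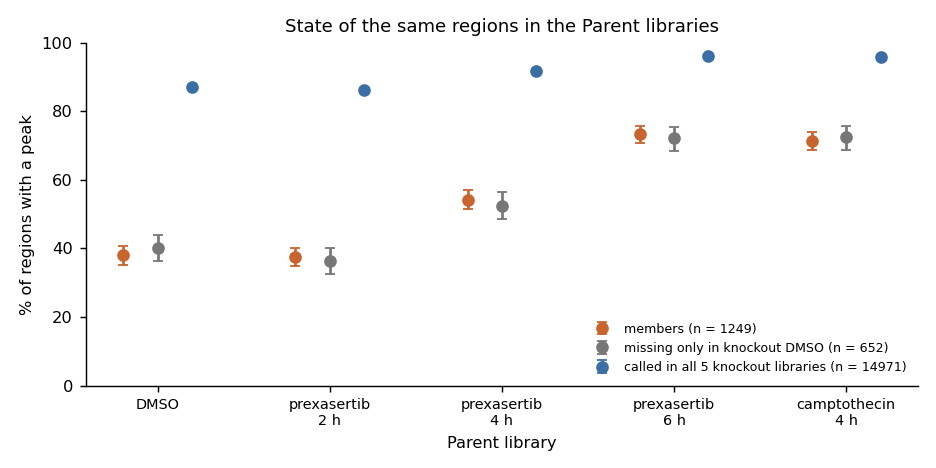
Percentage of regions with a peak (y axis) in each of the 5 Parent libraries (x axis), with exact 95% intervals. Members (orange) and regions that lacked only the knockout DMSO peak (grey) run together from about 38.0% and 40.0% with DMSO to 71.4% and 72.4% with camptothecin, below the regions called in all 5 knockout libraries (blue).

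Within the 4 lower bins of knockout DMSO strength, members were called less often in the Parent DMSO and camptothecin lists than regions called in all 5 knockout libraries. Strength was not matched inside a bin, and the strongest bin holds 5 members, of which the 6 h Parent list called all 5. In the bin from 5 to 10, 39.9% of the members and 71.5% of those regions were called with DMSO in Parent cells, and 73.7% and 91.0% with camptothecin. In the bin from 10 to 20 it was 52.5% and 90.9% with DMSO, and 89.2% and 98.1% with camptothecin. In the weakest bin, from 2 to 3, it was 33.1% and 46.0% with DMSO and 64.3% and 78.3% with camptothecin.

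Against Parent DMSO, camptothecin gave far more members gained than lost. The same held over all regions, with 7092 gained and 1357 lost. Of the 775 members not called with DMSO in Parent cells, 520 were called with camptothecin, 67.1% (63.7% to 70.4%), where 35.8% of all regions not called with DMSO were. Of the 474 called with DMSO, 102 had no camptothecin peak, 21.5% (17.9% to 25.5%), where 8.64% of all regions called with DMSO had none. The union of the lists also holds regions that no knockout library called, so the regions called in 4 or 5 knockout libraries are the closer comparison. Of those called in all 5, 1550 of 1940 (79.9%) were gained and 243 of 13031 (1.86%) were lost, so members were gained less often and lost more often than these. Of the 391 regions that lacked only the knockout DMSO peak and were not called with Parent DMSO, 65.5% (60.5% to 70.2%) were gained, and of the 261 called with it 17.2% (12.9% to 22.4%) were lost.

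With prexasertib in Parent cells, gains of members outnumbered losses at 4 h and 6 h, and were about equal to them at 2 h. All regions went the same way. At 6 h 8563 were gained and 1426 lost, at 4 h 3983 and 2109, and at 2 h 2536 and 2786. After 6 h, 537 of the 775 members were gained (69.3%, against 43.2% of all regions) and 95 of the 474 were lost (20.0%, against 9.08%). After 4 h, 378 were gained (48.8%, against 20.1%) and 175 lost (36.9%, against 13.4%). After 2 h, 224 were gained (28.9%, against 12.8%) and 230 lost (48.5%, against 17.7%). Against regions called in all 5 knockout libraries the members were gained less often at each time, since 83.7% of those were gained at 6 h, 65.4% at 4 h and 44.7% at 2 h. In the set without only the knockout DMSO peak the gains were 68.5%, 44.2% and 27.6% in the same order. The losses in that set were 22.6%, 35.2% and 50.6%, close to those of the members. In regions called in all 5 knockout libraries they were 2.17%, 4.21% and 7.67%. These comparisons share the Parent DMSO library with each other and with the camptothecin one.

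Region by region, 97 members (7.77%) were called in no Parent list, 165 in 1, 248 in 2, 326 in 3, 277 in 4 and 136 (10.9%) in all 5. Of the regions that lacked only the knockout DMSO peak, 8.90% were in no Parent list and 12.6% in all 5, and of those called in all 5 knockout libraries 0.855% and 77.5%. The most frequent combination, at 162 members, lacked a peak in the DMSO and 2 h lists and had one in the other 3. Next came peaks in all 5 lists, at 136, and in every list but DMSO, at 115. Another 104 had a peak in the 6 h and camptothecin lists alone. Members called in more Parent lists were also stronger in knockout cells, where the median DMSO height went from 8.78 at members in no Parent list to 11.9 at those in all 5.

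Where members were called in both libraries of a comparison, their Parent summits were higher with drug. Over 372 members called with DMSO and camptothecin, the median log2 height change was 0.47 (0.38 to 0.54), and 81.2% were higher. Over regions called in all 5 knockout libraries it was 0.83 (0.81 to 0.84), with 93.8% higher. After 6 h of prexasertib the members' median was 0.48 (0.41 to 0.54, n = 379), after 4 h 0.36 (0.30 to 0.43, n = 299) and after 2 h 0.15 (0.07 to 0.24, n = 244), against 1.02, 0.61 and 0.15. On the plain pileup, with no correction for depth, the members' medians were 0.29 with camptothecin and 0.38, 0.06 and 0 at 6, 4 and 2 h. The Parent camptothecin library had a background of 1.45 and the Parent DMSO library 1.63.

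Parent and knockout summits were set side by side at the same condition over members called in both. With DMSO the Parent summits were lower by a median log2 ratio of -0.28 (-0.31 to -0.22, n = 474), and after 2 h of prexasertib by -0.19. After 4 h the ratio was 0.12 and after 6 h 0.30 (0.27 to 0.39, n = 916). Regions called in all 5 knockout libraries went the same way, with -0.41, -0.38, 0.09 and 0.50. The direction at 4 h and 6 h turned on the plain pileup, where the members' ratios were -0.25 with DMSO and -0.70, -0.36 and -0.09 over the prexasertib times. The fold over local background kept the direction, with -0.07, -0.11, 0.055 and 0.18 from DMSO to 6 h. With camptothecin no ratio exists for members, since none has a knockout value there. At regions called in all 5 knockout libraries it was 0.59, with 87.2% higher in Parent cells, and 0.32 on the plain pileup. In knockout cells, the camptothecin summits of these regions had a median log2 height of -0.20 over DMSO, with 26.6% higher. On the plain pileup it was -0.07.

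The members were spread over all chromosomes. Their share of the regions called in the 4 knockout libraries lay between 6.34% (4.63% to 8.45%) on chromosome 16 and 9.57% (5.77% to 14.7%) on chromosome 21. On each of the 23 chromosomes the interval held the overall share of 7.70%. Within 10 kb of another member lay 20 members (1.60%), in 10 pairs. Of the 14971 regions called in all 5 knockout libraries, 17.4% had another such region within 10 kb. Because the sets differ so much in size, these shares cannot show whether the members are more apart. The closest pair spanned 1527 bp at chromosome 19, 47746305 to 47747831.

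Camptothecin peaks were seldom next door, and the sets that lacked another single knockout peak were similar. The nearest knockout camptothecin peak lay a median 24873 bp away (quartiles 9983 and 60687 bp), within 500 bp at 17 members (1.36%), within 10 kb at 314 (25.1%) and beyond 100 kb at 189 (15.1%). For the regions that lacked only the DMSO peak, the nearest DMSO peak was a median 20097 bp away. Across the sets that lacked only the DMSO or a prexasertib peak, the nearest peak of that library lay within 500 bp at 1.23% to 1.81%. It lay within 10 kb at 24.2% to 30.9%. With a camptothecin peak within 500 bp counted as present, 1232 regions met the rule.

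The strongest members, ranked by the lowest −log10 q among their 4 knockout libraries, are given by hg19 position. Ranks 1 and 4 lay on chromosome 8 on either side of the longest stretch of that chromosome without any region, which runs from 43838747 to 46839035. Rank 1, at 46854138 to 46854381, had knockout heights of 104, 88.1, 100.5 and 116, given here as below in the order DMSO, 2 h, 4 h and 6 h of prexasertib. In Parent cells it had no peak with DMSO or at 2 h, and heights of 85.3 at 4 h, 86.6 at 6 h and 94.8 with camptothecin.

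Rank 4, at 43826828 to 43827397, had knockout heights of 69.6, 69.5, 73.5 and 87.8. Its Parent heights were 70.4, 47.4 and 93.8 with DMSO, at 2 h and at 6 h, and 69.9 with camptothecin, with no peak at 4 h. At both places the local background was far above the genome-wide one, by 38.4 and 25.8 times, and a camptothecin peak lay 930 and 547 bp away. Rank 2, at chromosome 14, 19000417 to 19000830, was the first region of its chromosome, with knockout heights of 20.1, 13.8, 28.6 and 23.6. Without the 4 members within 100 kb of the longest peak-free stretch of their chromosome, 1245 remain.

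Rank 3, at chromosome 17, 2689418 to 2689852, was called in all 5 Parent lists. Its knockout heights were 23.8, 27.1, 21.1 and 19.6, where the calculated height needed for a camptothecin peak was 9.20. In Parent cells the heights were 12.2 with DMSO, 14.9, 18.9 and 43.3 over the prexasertib times and 27.7 with camptothecin. The site was thus lower in the Parent than in the knockout DMSO library and higher in the Parent library after 6 h.

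Rank 5, at chromosome 1, 28994962 to 28996536, was a broad site, with knockout widths of 873, 1555, 1109 and 446 bp and heights of 30.7, 20.0, 24.9 and 23.1 from DMSO to 6 h. It had no Parent DMSO peak, and its Parent heights were 14.2, 32.4 and 46.6 over the prexasertib times and 22.1 with camptothecin. Rank 10, at chromosome 22, 30783084 to 30783711, likewise had no Parent DMSO peak, knockout heights between 17.3 and 21.3, and Parent heights of 13.5, 15.8, 44.0 and 24.9 from 2 h to camptothecin. Both of these sites had their highest summit of the 9 libraries that could hold one in Parent cells after 6 h of prexasertib.

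Rank 6 was at chromosome 6, 90142520 to 90143190, and rank 7 at chromosome 2, 106361009 to 106362246. Rank 8 was at chromosome 17, 60885482 to 60885886, and rank 9 at chromosome 22, 45405781 to 45406353. The knockout heights of these 4 lay between 14.0 and 25.4. In Parent cells the camptothecin and 6 h lists called all 10, the 4 h list 9, the 2 h list 6 and the DMSO list 4. Strong regions in general were mostly called there. At a knockout DMSO −log10 q from 10 to 20, regions called in all 5 knockout libraries reached 98.1%, 98.2%, 95.8%, 89.3% and 90.9% in the same order.

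**Figure D5:**
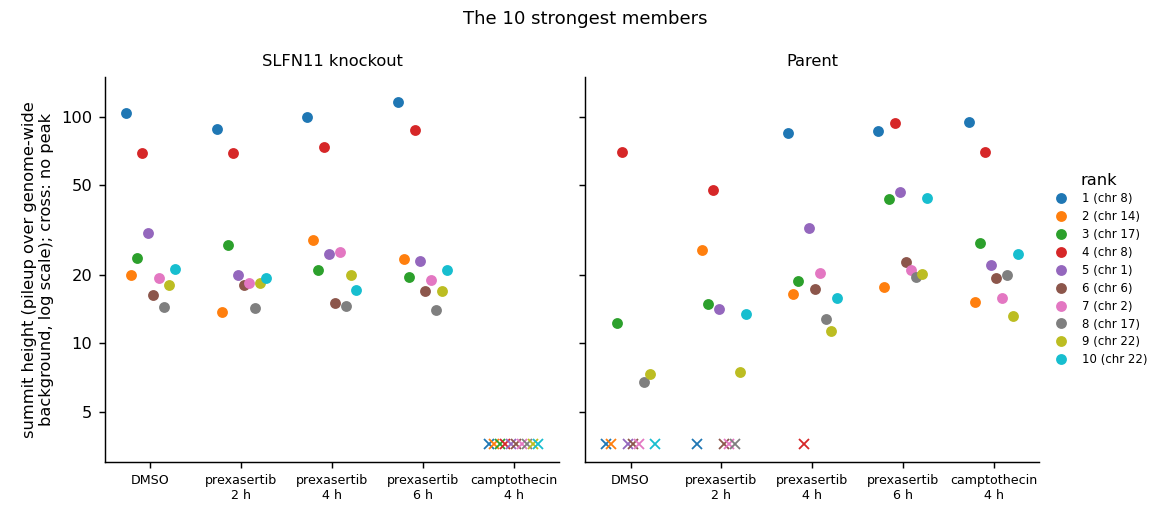
Summit height (log scale) of the 10 strongest members in the 5 knockout libraries (left) and the 5 Parent libraries (right), with a cross where a library has no peak and colours by rank and chromosome. All 10 have a cross with camptothecin in knockout cells, by the rule, and a point with camptothecin in Parent cells. Of regions called in all 5 knockout libraries at a DMSO −log10 q from 10 to 20, 98.1% had that Parent peak.

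The 5 members with the strongest Parent camptothecin peaks were above the median member in summit height in each of the 4 knockout libraries. The region at chromosome 19, 56028250 to 56028892, had a Parent height of 35.3 with camptothecin and 11.6 with DMSO, and knockout heights of 18.2, 13.8, 14.0 and 13.5 from DMSO to 6 h. That at chromosome 12, 27175329 to 27175797, was called in all 9 libraries the rule allows, with Parent heights of 17.1 with DMSO and 33.9 with camptothecin and knockout heights between 15.7 and 21.1. The region at chromosome 3, 49726497 to 49727321, went from 9.18 with DMSO to 34.6 with camptothecin in Parent cells, and had knockout heights of 11.3, 17.6, 16.2 and 17.1. The others by this ranking were at chromosome 15, 75315765 to 75316243, with Parent heights of 15.9 and 31.1, and chromosome 19, 50083386 to 50084041, with 8.57 and 28.4.

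The 97 members without any Parent peak were led by chromosome 2, 74211660 to 74212671, with knockout heights of 20.7, 20.0, 24.9 and 17.6 and widths between 665 and 871 bp. At chromosome 11, 58694870 to 58695304, the heights were 13.2, 12.4, 13.5 and 13.0, so the 4 libraries hardly differed. At chromosome 7, 64146669 to 64147909, a low but broad site, heights were between 9.53 and 14.3 and widths between 904 and 1179 bp. The others named by the rule were at chromosome 16, 54389186 to 54389478, and chromosome 3, 18230686 to 18231670, with heights between 8.02 and 12.0.

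The 3 widest members differed in height and in how their width varied between libraries. The widest with DMSO was at chromosome 16, 30482687 to 30484720, where the knockout widths were 1494, 774, 595 and 1119 bp and the DMSO height was 16.3. The region at chromosome 2, 29337758 to 29339505, measured 1375, 1353, 944 and 825 bp at heights between 7.52 and 11.3. At chromosome 6, 150216628 to 150217905, the width was 1278 bp with DMSO and between 319 and 423 bp in the prexasertib libraries, so that site was broad in 1 library only.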

How the data were processed

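ATAC-seq peak lists of 10 libraries, 1 per genotype and treatment, were used. The submitters' processing notes name MACS2 2.1.2 among the tools, with BWA 0.7.17 and build hg19. Parameters, the shift of reads for the transposase, duplicate removal and any control library are not given in the sources used here. Each library has its own deposited narrowPeak list. The deposited fold divides the summit pileup by the local background, each with 1 added. Every summit also has a deposited −log10 p-value and a −log10 q-value, of which no list holds one below 2. The deposited score was the −log10 q times 10, rounded down, in at least 99.9885% of summits, and was not used further.

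Summits with the same peak start and end were counted as 1 peak. Peaks on chromosomes 1 to 22 and X were merged at 1 bp overlap. The whole pileup and the background were solved from both values, within 0.001, at 99.7% to 99.8% of summits. This recovery and the calls were tested on simulated data. Shares have exact (Clopper-Pearson) intervals and medians order-statistic intervals, both at 95% confidence. No test was made. Python 3.11.15 was used with pandas 2.3.3, numpy 2.4.6 and scipy 1.17.1.

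The members, the lists and the rules were chosen with earlier results of these data known. Named regions are the 10 members with the largest minimum −log10 q over the 4 knockout lists, the first 5 by that order in all and in no Parent list, the 3 widest with DMSO, 3 on either side of the threshold, and the 5 with the largest Parent camptothecin −log10 q. The calculated needed height and the local background were added after the data were seen. Gene lists, cell markers and motifs planned for an annotation of this build were not used here, and positions are 1-based without annotation.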

Additional observations from a re-analysis of the deposited data

How the results depend on the processing

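The peak lists give no value where nothing was called, so a region without a peak is below a threshold and not closed, and depth limits what that threshold is. The members remained the largest of the 5 sets under each of 8 other settings of the rule, by 1.14 times (equal list lengths) to 2.19 times the next set, which was always the one without the DMSO peak. More members were called in Parent cells with camptothecin than with DMSO under each, by between 10.8 and 39.6 percentage points. No paired analysis was possible because each group has 1 library. 2 alternatives were added after the data were seen, merging without the Parent 4 h list (1250) and leaving out members beside the longest peak-free stretches (1245).

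Requiring a −log10 q of at least 5 for presence and the authors' threshold for absence gave 330 members, and 151, 21, 69 and 34 regions without only the DMSO, 2, 4 and 6 h peak. The Parent shares were then 50.3%, 52.1%, 70.9%, 85.5% and 85.2% from DMSO to camptothecin, with 136 gained and 21 lost with camptothecin. Equal list lengths gave 471 members, 413 without only the DMSO and 307 without only the 2 h peak, Parent shares of 63.9% with DMSO, 62.2% at 2 h, 72.8% at 4 h and 74.7% with camptothecin, and 115 gained and 64 lost. A −log10 q of at least 5 in every list gave 268 without only the 4 h peak, shares of 57.9% at 4 h, 77.9% at 6 h and 76.2% with camptothecin, and 49 lost. A reciprocal overlap of 50% gave 460 and 412 without only the 2 and 6 h peak, and shares of 48.7% at 4 h, 65.6% at 6 h and 65.3% with camptothecin. Scaling to the lowest background gave shares of 43.6%, 61.3% and 77.8% at 2, 4 and 6 h and 77.4% with camptothecin. The cause of these shifts was not tested.

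The median log2 height changes of the members in Parent cells were 0.041, 0.15, 0.28 and 0.22 from 2 h to camptothecin when the fold over local background was used. With the plain pileup they were 0, 0.059, 0.38 and 0.29. Gains and losses were not recomputed under depth scaling or the 500 bp window. A threshold of 3, merging over the knockout lists only and the 500 bp window moved no count by over 1.5 times and no share out of its interval, and summed in place of longest peak length left the knockout widths within theirs.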
